A study of Mus musculus with 40 samples.

Results

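The cytosolic ribosome is built from a large and a small subunit, each a core of ribosomal RNA clothed with proteins that are each encoded, with few exceptions, by a single functional gene. The genes were taken by symbol from the protein-coding genes of the GENCODE M21 basic annotation on the mouse assembly GRCm38: every Rpl or Rps symbol followed by a digit, plus Rplp0, Rplp1, Rplp2 and Rpsa, without the 10 genes of the ribosomal S6 kinases, whose symbols also begin with Rps. The rule gave 92 of 21951 protein-coding genes. Of these, 46 encode proteins of the large subunit and 31 proteins of the small subunit, 7 are paralogs of such genes (Rpl3l, Rpl7l1, Rpl10l, Rpl22l1, Rpl36al, Rpl39l and Rps27l), 7 are single copies named as pseudogene or retrogene that the annotation nevertheless lists as coding, and 1, Rps19bp1, encodes a partner of the Rps19 protein rather than a ribosomal protein. For comparison the same values were taken for 78 genes of mitochondrial ribosomal proteins (Mrpl and Mrps), 36 genes of subunits of respiratory complex I (Nduf) and 290 annotated pseudogenes of ribosomal proteins.

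Ribosomal proteins are needed in matched amounts in every growing or secreting cell, and their genes are known as abundantly transcribed housekeeping genes with short bodies and promoters rich in CpG. Many of their messages begin with a run of pyrimidines, the terminal oligopyrimidine tract, through which nutrient signalling to mTOR controls their translation, so that for these genes the chromatin at the promoter reports only 1 of the layers of control. Of the histone marks measured, H3K4me3 is known from the promoters of active genes, H3K27ac from active promoters and enhancers, H3K4me1 from enhancers and from the flanks of active promoters, and H3K27me3 from genes silenced by Polycomb.

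The data were chromatin immunoprecipitation sequencing of iBAT, a brown fat depot, from wild type C57BL/6N mice of 20 weeks, with no transgene in any group. There were 8 numbered mice in 4 conditions of 2: warm on normal chow diet (NCD; mice 1 and 2), 4 °C for 24 h on NCD (mice 4 and 5), warm on high-fat diet (HFD; mice 7 and 8) and 4 °C for 24 h on HFD (mice 10 and 11), where HFD was fed for 12 weeks from 8 weeks of age. Each of the 4 marks was measured in each of the 8 mice, which gave 32 peak lists, and 8 input libraries served as background for peak calling and have no list. The study's methods speak of tissue from 2 mice for each sequencing experiment, so a numbered mouse may stand for more than 1 animal, and p-values cover only the spread between these samples.

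A gene was counted as having a mark in a mouse when a peak of that list overlapped the 1000 bp on either side of any of its annotated start sites, and the peak with the highest -log10 p represented it. Width is the length of that peak in bp. Height is the deposited fold enrichment over input at its summit, a ratio. Because the lists differ in sensitivity, widths and heights were compared as own-list percentiles, the percentage of peaks in the same list with a lower value. The lists hold no read totals, so depth is unknown and the number of peaks is the only sign of it here. H3K4me3 lists held 13517 to 24104 peaks and H3K27ac lists 3224 to 40604, the lowest of both in mouse 7, while H3K4me1 lists held 12 to 27568 and H3K27me3 lists 20 to 6428. The H3K4me1 lists of mice 1, 7 and 10 held 592, 12 and 18 peaks. A gene without a peak therefore fell below the calling threshold in that list, which does not show that the mark was absent, and in a bulk tissue a mark in fewer cells cannot be told apart from less of the mark in each cell. Of 7 brown adipocyte genes, 6 had H3K4me3 in all 8 mice and 7 in at least 7, while of 4 skeletal muscle genes Acta1 and Pygm had it in 4 mice each and Myh4 and Ckm in 0, and Alb and Neurod1, of liver and neurons, had it in 0. The part of muscle tissue in any result was not tested.

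The sequence at the starts was read first, from the RefSeq promoter table of assembly GRCm38.p6, which matched 66 of the 92 genes. The following stretches run from 40 bases before to 20 bases after the RefSeq start, on the strand of the gene. Capitals mark the pyrimidine run read from a C near the start, where one was found. Any C or T directly before that C stays in small letters, as at Rpl7a and Rpl22l1. They show a gene with H3K27ac in every mouse (Rpl27a), 1 of the 5 broadest in H3K4me3 (Rpl7a), the gene with the narrowest H3K4me3 (Rplp0), the substrate of the S6 kinases (Rps6), the only promoter of a marked gene with TATAAA (Rpl22l1), and 3 genes with H3K4me3 in every mouse beside a paralog or copy with it in none (Rps27 and Rps27rt, Rpl10 and Rpl10l, Rpl39 and Rpl39l).
Rpl27a, chr7:109519155-109519214, plus strand: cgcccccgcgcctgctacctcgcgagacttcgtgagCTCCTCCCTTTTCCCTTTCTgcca
Rpl7a, chr2:26910767-26910826, plus strand: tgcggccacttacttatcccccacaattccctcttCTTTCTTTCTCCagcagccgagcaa
Rps6, chr4:86857348-86857407, minus strand: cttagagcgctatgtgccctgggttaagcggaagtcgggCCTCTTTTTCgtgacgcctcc
Rplp0, chr5:115559427-115559486, plus strand: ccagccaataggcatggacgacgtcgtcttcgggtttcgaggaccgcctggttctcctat
Rpl22l1, chr3:28805468-28805527, plus strand: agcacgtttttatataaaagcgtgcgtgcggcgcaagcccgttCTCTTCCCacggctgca
Rps27, chr3:90213629-90213688, minus strand: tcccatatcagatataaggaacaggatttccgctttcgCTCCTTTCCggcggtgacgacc
Rps27rt, chr9:114982720-114982779, minus strand: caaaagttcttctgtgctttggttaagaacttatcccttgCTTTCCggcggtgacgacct
Rpl10, chrX:74270776-74270835, plus strand: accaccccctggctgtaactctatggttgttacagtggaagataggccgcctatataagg
Rpl10l, chr12:66284382-66284441, minus strand: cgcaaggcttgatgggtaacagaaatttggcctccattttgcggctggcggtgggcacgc
Rpl39, chrX:37085203-37085262, minus strand: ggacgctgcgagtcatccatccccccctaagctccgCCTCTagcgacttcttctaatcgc
Rpl39l, chr16:10170188-10170247, plus strand: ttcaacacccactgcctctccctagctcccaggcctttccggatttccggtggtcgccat
Rps27 and its retrotransposed copy Rps27rt shared a run of 38 bases that began at the start of Rps27rt and 1 base after the start of Rps27, and upstream of it the letters diverged. In Rpl10 against Rpl10l and in Rpl39 against Rpl39l the longest shared run was 8 bases.

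A pyrimidine start was defined as at least 5 C or T in a row, read from a C within 5 bases of the RefSeq start. The base before that C was not checked, so the run may be the inner part of a longer tract. Such a start was found in 31 of the 73 promoters of genes with H3K4me3 in every mouse (42.5%). The share was 19.6% of the promoters of all coding genes so marked and 18.3% of all 32851 promoters. Over the 300 bases of each promoter entry, motifs were searched as letters on both strands (TATAAA only in the 50 bases before the start, on the strand of the gene), and a match describes letters only. CCGGAAG, the core bound by Ets family factors such as GABP, was in 26 promoters (35.6%, against 20.6% of the promoters of marked genes and 8.86% of all). GCCATNTT, the core of the YY1 motif, was in 17 (23.3%, against 9.71% and 6.05%). CACGTG, the E-box read by Myc and its relatives, was in 8 (11.0%, against 10.4% and 7.15%), and GGGCGG, the GC box of Sp factors, in 46 (63.0%, against 64.1% and 35.7%). The TATA box letters TATAAA were in 1 promoter, that of Rpl22l1 (1.37%, against 1.02% and 2.63%). The share of these promoters with Ets and YY1 letters thus stood above that of the promoters of all marked genes, which include them, while E-box and GC box letters were about as frequent in both. The 73 promoters belong to 62 genes, so a gene with several entries counts more than once. The median GC content was 59% for the ribosomal protein promoters and 61% for marked genes, and the median ratio of observed to expected CpG was 0.871 against 0.786 and, for all promoters, 0.384. Rpl3l, a paralog used in striated muscle, had ratios of only 0.0893 and 0.134 at its 2 promoters.
Split by the pyrimidine start, the 29 marked genes with one had a median H3K4me3 width of 1871.5 bp and the 33 without one 1698.5 bp. Their median width percentiles were 82.8 and 78.1 and their median height percentiles 89.4 and 91.6. The genes with a pyrimidine start thus had the higher median width and the lower median height, and neither difference was tested. RefSeq and GENCODE starts were identical for 18 of the 73 promoters and lay a median of 16 bases apart, which moves the few bases on which a pyrimidine start depends. No promoter entry was matched for 26 genes, among them Rpl10-ps3, Rpl17, Rpl21, Rpl23a, Rpl29, Rpl3, Rpl30, Rpl32, Rpl36, Rpl36-ps4, Rpl36a-ps1, Rpl7, Rpl8, Rpl9-ps1, Rpl9-ps6, Rplp1, Rps12-ps3, Rps14, Rps20, Rps27a and Rps29.

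H3K4me3 divided the genes without an intermediate. It was found in all 8 mice at 82 of the 92 genes and in none of the 8 mice at the other 10, whereas 43.3% of all protein-coding genes had it in all 8 mice, 35.1% in none and the rest in some. All 77 genes of subunit proteins were marked in every mouse, as were all 78 mitochondrial ribosomal protein genes and all 36 complex I genes. The 10 unmarked genes were 3 of the 7 paralogs and all 7 copies named as pseudogene or retrogene. The unmarked paralogs were Rpl3l, known from heart and skeletal muscle, and Rpl10l and Rpl39l, both known from male germ cells, where they stand in for Rpl10 and Rpl39. The unmarked copies were Rpl9-ps1, Rpl9-ps6, Rpl10-ps3, Rpl36-ps4, Rpl36a-ps1, Rps12-ps3 and Rps27rt. The marked paralogs were Rpl7l1, which takes part in ribosome assembly, Rpl22l1, the counterpart of Rpl22, Rpl36al, the autosomal counterpart of X-linked Rpl36a, and Rps27l, a known p53 target. H3K27me3 was found at 0 of the 92 genes in any of the 8 lists. In at least 1 list it was found at 6.94% of all protein-coding genes, mostly through mouse 5 (6.56%). Of the 9499 genes with H3K4me3 in every mouse it was found at only 0.937%. A count of 0 among the 82 marked genes is thus near what such genes gave. The 10 unmarked genes carried neither an H3K4me3 nor an H3K27me3 peak, in H3K27me3 lists of 20 to 6428 peaks.

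**Figure D1:**
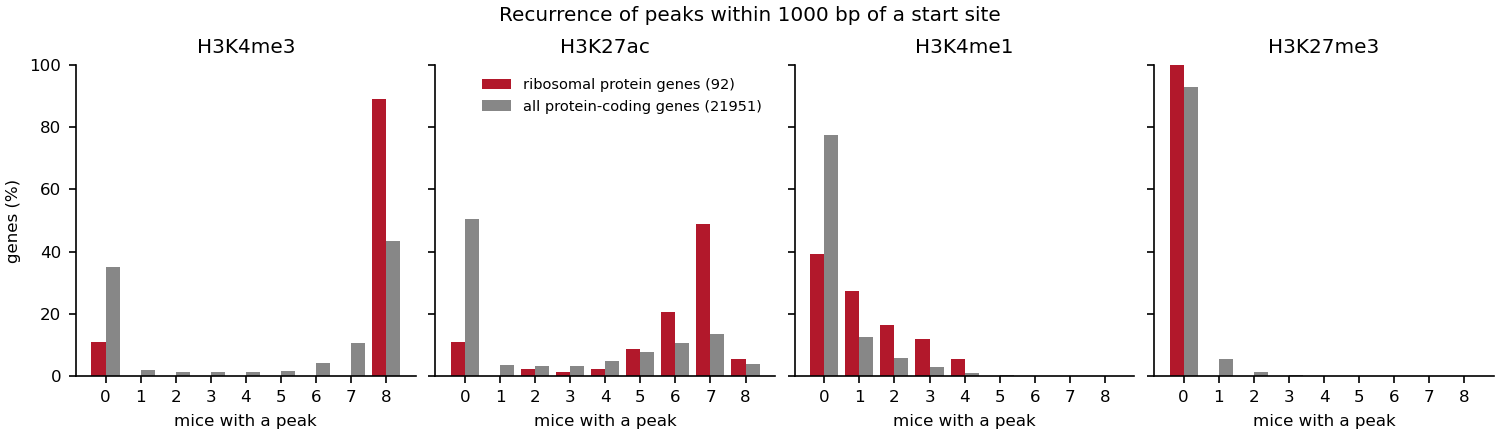
Each panel shows 1 mark and plots the percentage of genes (y axis) against the number of mice with a peak within 1000 bp of a start (x axis, 0 to 8), for the 92 ribosomal protein genes and for all 21951 protein-coding genes. For H3K4me3 the ribosomal protein genes sit at 8 mice (82 genes) and at 0 mice (10 genes) with none between, and for H3K27ac the tallest bar of the ribosomal protein genes is at 7 mice (45 genes).

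At the 82 marked genes the H3K4me3 peak was broad at the median, and high. In mice 1, 2, 4, 5, 7, 8, 10 and 11 its median width was 1903.5, 1966, 1449.5, 1611.5, 978, 1805.5, 1713.5 and 2191 bp. Mouse 7, whose list was the shortest, was the lowest by far, and the other 7 mice overlapped between temperatures and between diets. In mouse 7, 30 of the 82 genes had 2 or more H3K4me3 peaks in the window, against 2 to 8 in the other mice. The width of such a gene is that of 1 of its peaks. As own-list percentiles the same medians were 80.3, 81.4, 79.8, 79.6, 77.6, 80.4, 85.5 and 83.6, so that the rank of these peaks varied much less than their length in bp. All 9499 protein-coding genes with H3K4me3 in every mouse had median width percentiles of 60.8 to 79.1, and the ribosomal protein genes stood above them in 8 of 8 mice, by 4.34 to 16.8 points with a median of 4.94.

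Height set them further apart. The median height percentile of the 82 genes was 94.7, 96.6, 88.7, 95.9, 65.2, 85.5, 90.0 and 95.4 in the 8 mice in the same order. The corresponding range for all 9499 genes was 59.2 to 81.8, and the ribosomal protein genes were higher in 8 of 8 mice, by 6.01 to 17.6 points with a median of 14.6. Between 17 and 59 of the 82 genes exceeded the 90th percentile of their list, with 17 in mouse 7 and at least 33 in each of the others. Only 4 of the 82 (4.88%) exceeded it in no mouse, against 32.5% of the 9499 genes. Those above it in every mouse were Rpl7 and Rpl24, 2 of 82 genes (2.44%) against 0.232% of all 9499, and without mouse 7 there were 8 (9.76% against 0.695%). Rpl24 lies outside the set of genes chosen for naming and is given because the count is this small.

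The comparison with other housekeeping families depended on the measure. Mitochondrial ribosomal protein genes had median width percentiles of 66.4 to 74.8, below the cytosolic ones in 8 of 8 mice, and height percentiles of 70.8 to 92.8, below them in 7 of 8. Complex I genes, which encode a respiratory complex abundant in brown fat, had broader peaks than the cytosolic ribosomal protein genes in 8 of 8 mice, at 80.7 to 88.6, while their heights of 82.8 to 96.3 were lower in 4 and higher in 4. Height thus did not set them apart from complex I genes in a constant direction, and width placed the ribosomal protein genes between the other families. These are descriptions of the same mice and lists, and no test was made of them, because genes are not replicates of a condition.

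**Figure D2:**
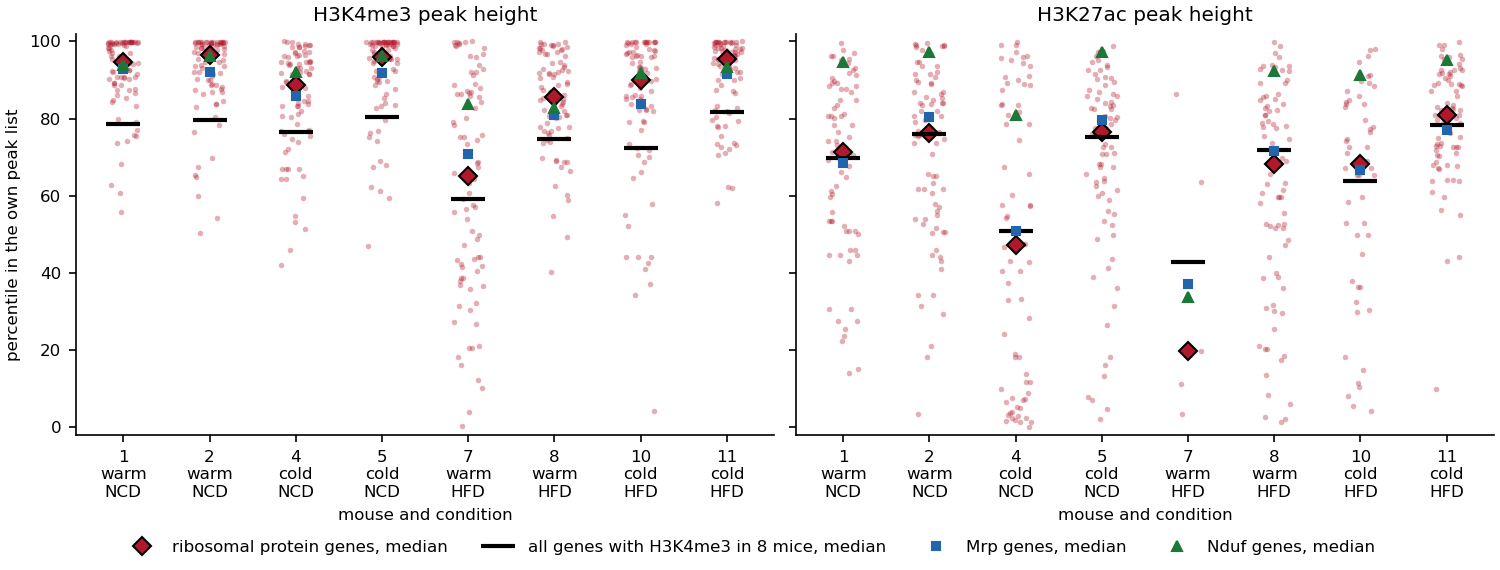
Own-list height percentile (y axis, 0 to 100) of H3K4me3 and of H3K27ac peaks in each mouse (x axis), with a point for each ribosomal protein gene, a diamond for their median, a bar for the median of all genes with H3K4me3 in every mouse, squares for mitochondrial ribosomal protein genes and triangles for complex I genes. For H3K4me3 the diamond lies above the bar in 8 of 8 mice and is lowest, at 65.2, in mouse 7, and for H3K27ac it lies above the bar in 5 of 8.

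Among the genes of the large subunit, Rpl7 (chr1:16101295-16104662, GRCm38, minus strand) had the broadest peak by rank. Its H3K4me3 widths in mice 1, 2, 4, 5, 7, 8, 10 and 11 were 3344, 3782, 2829, 3064, 923, 3549, 2249 and 3509 bp. The short peak was that of mouse 7, where it nevertheless stood at the 75.0th width percentile, and over the other 7 mice its percentile moved by only 3.84 points. Its height lay between the 92.2nd and the 100th percentile. Rpl41 and Rpl7a followed, with lowest, median and highest widths of 1285, 2671 and 2754 bp for Rpl41 and 1202, 2484 and 3177 bp for Rpl7a. Rpl41 encodes the smallest ribosomal protein, and its gene has only 1192 bp. Rpl9 was the steadiest in height, with a range of 5.35 percentile points over the 7 mice without mouse 7. In mouse 7 it stood at the 32.4th percentile. Rpl3, whose product lies near the peptidyl transferase centre, had widths of 1279, 2007.5 and 2367 bp and a median height percentile of 92.2.

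The stalk of the large subunit, which calls in the translation factors, was unevenly marked. Rplp0 (chr5:115559467-115563727, plus strand), its base and a common reference gene in expression assays, had the lowest width percentile of the 82 genes, with a median of 51.2. Its widths in mice 1, 2, 4, 5, 7, 8, 10 and 11 were 1112, 1178, 783, 892, 871, 940, 1104 and 1348 bp. Each of these widths was below the median of the 82 genes in the same mouse, least so in mouse 7, where Rplp0 stood at the 71.9th width percentile and the group median was 978 bp. Its height was also moderate, from the 44.3rd to the 87.5th percentile with a median of 71.1. Rplp1 and Rplp2, which dimerise on that base, had median widths of 1822.5 and 1939 bp and median width percentiles of 83.0 and 85.7. The widest peak of Rplp0, 1348 bp, was shorter than the narrowest of Rplp1 (1434 bp) and of Rplp2 (1440 bp), so the widths of Rplp0 did not overlap with either.

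Rpl5 and Rpl11, which together carry the smallest ribosomal RNA into the large subunit and are known to bind Mdm2 when assembly fails, overlapped in H3K4me3. Rpl5 had widths of 1092, 1502 and 1956 bp (lowest, median and highest) and a median height percentile of 96.1, and Rpl11 had widths of 1296, 1463 and 1847 bp and a median height percentile of 90.7. Rpl10, the X-linked protein that completes the large subunit, had the lowest median height percentile of all 82 genes, 66.0, ranging from 46.9 to 85.8 over the mice. Its width varied from 936 to 2641 bp. The other X-linked genes of the large subunit were Rpl36a, one of the 5 lowest in width percentile with widths of 602, 1115.5 and 1527 bp, and Rpl39 with 1328, 1719.5 and 2070 bp. Rpl36al, which encodes nearly the same protein as Rpl36a from chromosome 12, had a median width of 2075.5 bp, ranging from 642 to 2520 bp. Rpl22 (452, 2037.5 and 2378 bp) and Rpl22l1 (625, 1414 and 1908 bp) overlapped widely, as did Rpl7l1 with both (1010, 1522.5 and 2091 bp).

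Among the genes of the small subunit, Rps19 (chr7:24884371-24889806, plus strand), the gene most often mutated in Diamond-Blackfan anaemia, had the broadest H3K4me3 by rank. Its widths in mice 1, 2, 4, 5, 7, 8, 10 and 11 were 3039, 2828, 3054, 2967, 877, 2466, 2190 and 3165 bp. All mice but mouse 7 had at least 2190 bp, yet its height was low for the group, with percentiles of 51.3, 79.5 and 95.5 (lowest, median and highest) beside a median of 91.6 for the small subunit. Breadth and height thus differed within a single gene, and over the 82 genes the Spearman correlation of the median width and height percentiles was 0.188, a description across genes that share the same 8 lists. Rps6, the classic target of the S6 kinases, had widths of 590, 2181.5 and 2561 bp. Rps27a, whose protein is made as a fusion to ubiquitin, had 1602, 1947.5 and 2338 bp. Rps27 (chr3:90212522-90213651, minus strand) had 1442, 1871.5 and 2219 bp and a median height percentile of 99.0, while its paralog Rps27l had 725, 1546 and 1777 bp and 82.7.

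At the narrow end of the small subunit stood Rps23, Rps4x and the non-ribosomal Rps19bp1, with median widths of 1024, 1102 and 1304 bp. Rps23, a protein of the decoding centre, was also unsteady in height. Its percentiles in mice 1, 2, 4, 5, 7, 8, 10 and 11 were 90.2, 94.0, 94.7, 98.4, 0.366, 58.8, 85.8 and 95.3. It exceeded the 90th percentile in 5 mice and stood near the bottom of the list in mouse 7. Rpsa, a protein also described as a laminin receptor, had widths from 337 to 2174 bp with a median of 1670 bp, and Rps26, which contacts the messenger RNA near the exit channel, had 984, 1694 and 1848 bp. By subunit, the large had a median H3K4me3 width percentile of 82.4 and the small of 79.8, the large being higher in 7 of 8 mice, and height percentiles of 94.9 and 91.6, the large being higher in 6 of 8.

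The placing of the peak was alike at nearly all of these genes. Distances were measured from the commonest annotated start, or the most upstream of equally common ones, a choice that favours downstream positions. Taking medians over mice and then genes, H3K4me3 reached 576.75 bp upstream and 1206.5 bp downstream, against 530.5 and 1013 bp for the 9499 marked genes. The downstream arm was the longer at 77 of 82 genes (93.9%, against 80.1%), and the summit lay downstream of the start at 82 of 82 (against 81.6%), by a median of 218.5 bp with quartiles of 166 and 309 bp. For Rps14, Rpl18, Rpl17, Rps10 and Rpl41 the whole peak lay downstream of that start, at Rps14 by the most with its summit 27613.5 bp away, and at Rps14, Rpl18 and Rpl17 it was reached only from another annotated start. For these the side reflects the start chosen, and they are part of the counts given. Because these genes are short, with a median of 3328.5 bp against 24703 bp, the peak covered a median of 38.9% of the gene body, against 4.23%. It covered at least 50% of the body at 22 genes (26.8%, against 3.58%), and at Rpl36, of 828 bp, all of it, followed by Rps27 (96.2%), Rpl41 (94.9%) and Rplp1 (85.2%). Gene length itself was unrelated to the width of the peak among the 82 genes, with a Spearman correlation of 0.00776.

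**Figure D3:**
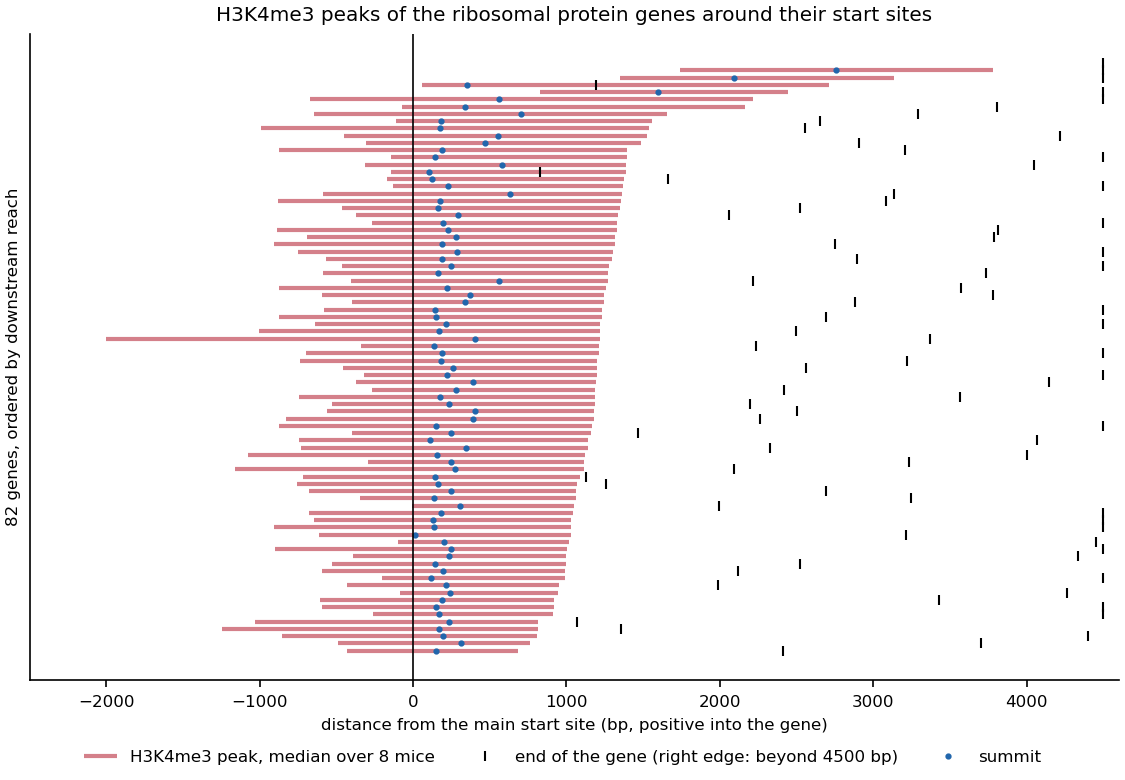
Median extent of the H3K4me3 peak at each ribosomal protein gene (1 row a gene) as distance in bp from the commonest annotated start, positive downstream, with the summit and, where within the axis, the end of the gene marked; Rps14, whose summit lies 27613.5 bp downstream, falls outside the axis. The downstream arm is the longer at 77 of 82 genes and the summit clusters near a median of 218.5 bp downstream.

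Other features of the loci went along with width in part. Small nucleolar RNAs, which guide the modification of ribosomal RNA, lie inside 30 of the 82 genes (36.6%, against 2.15% of all marked genes), and these hosts had a median H3K4me3 width of 1809.25 bp against 1731.25 bp for the other 52. At 14 of 82 genes (17.1%, against 20.8%) another coding gene starts on the opposite strand within 1000 bp, as Rab13 does beside Rps27 and Ndufa7 beside Rps28. Their median width was 2085.5 bp against 1708.75 bp for the other 68, and their median H3K27ac height percentile 84.4 against 65.0. The peak at such a start can serve both genes, so the share of each in it cannot be told apart. No 2 of the 82 genes shared a peak, and they lie on 19 chromosomes, with 14 on chromosome 7 and 4 on the X chromosome.

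H3K27ac was less uniform. Of the 82 genes, 75, 80, 73, 81, 5, 79, 52 and 79 had an H3K27ac peak in mice 1, 2, 4, 5, 7, 8, 10 and 11. Mouse 7 held only 6.10% of them, and mouse 10 63.4%, while the other 6 held 89.0% to 98.8%. Among all 9499 genes with H3K4me3 the same mice held 71.7%, 89.6%, 66.9%, 89.0%, 8.67%, 81.4%, 39.8% and 88.2%, so mice 7 and 10 were the lowest in both sets. Their lists held 3224 and 14511 peaks, and that of mouse 1, with 75 of the 82 genes, 16889, and the part of list length was not tested. A peak in at least 7 mice was found at 50 of 82 genes (61.0%), against 37.2% of all marked genes, 41.0% of mitochondrial ribosomal protein genes and 94.4% of complex I genes. Without mouse 7, 50 genes (61.0%) had it in all 7 remaining mice, against 36.9%. In those 7 mice, 10 to 33 of the genes had 2 or more H3K27ac peaks in the window, of which 1 gave the width.

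The 5 genes with H3K27ac in every mouse were Rpl27a, Rps12, Rps14, Rps26 and Rps27. Rps27 had widths of 759, 924, 1228, 1015, 210, 477, 471 and 1154 bp in the 8 mice and stayed between the 81.0th and 95.9th height percentiles. Rps26 had widths of 1167, 1133, 1245, 1120, 202, 1236, 416 and 946 bp. In both the peak in mouse 7 was the narrowest, and Rps26 fell there to a height percentile of 11.2 although its median was 92.8. A further 45 genes lacked H3K27ac in mouse 7 alone, among them Rpl7 with widths of 951, 2579 and 2852 bp, Rps19 with 358, 1600 and 2636 bp, Rps6 with 493, 1733 and 2005 bp and Rpl10 with 246, 440 and 1862 bp. Of the 19 genes with it in 6 mice, 18 lacked it in mice 7 and 10, Rplp0 being one of them with the narrow widths of 335, 426.5 and 512 bp.

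There were 13 genes with H3K27ac in 5 mice or fewer. It was found in 5 mice at 8 genes, among them Rpl10a, Rpl12, Rpl36al, Rps4x, Rps10, Rps19bp1 and Rpsa. Rpl5 and Rpl22l1 had it in mice 1, 2, 5 and 11, with median widths of 648 and 485.5 bp, and Rps24, a small subunit protein of ribosomal RNA processing, in mice 2, 5 and 8 with a median of 465 bp. Rpl39 had it in mice 4 and 8 (664 and 327 bp) and Rpl36a in mice 4 and 5 (213 and 224 bp). All 5 had H3K4me3 in every mouse, with median H3K4me3 height percentiles between 82.9 and 96.1. The 2 genes with the fewest H3K27ac peaks are X-linked, and the other X-linked genes, Rps4x and Rpl10, had 5 and 7. The 10 genes without H3K4me3 had H3K27ac in 0 mice.

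**Figure D4:**
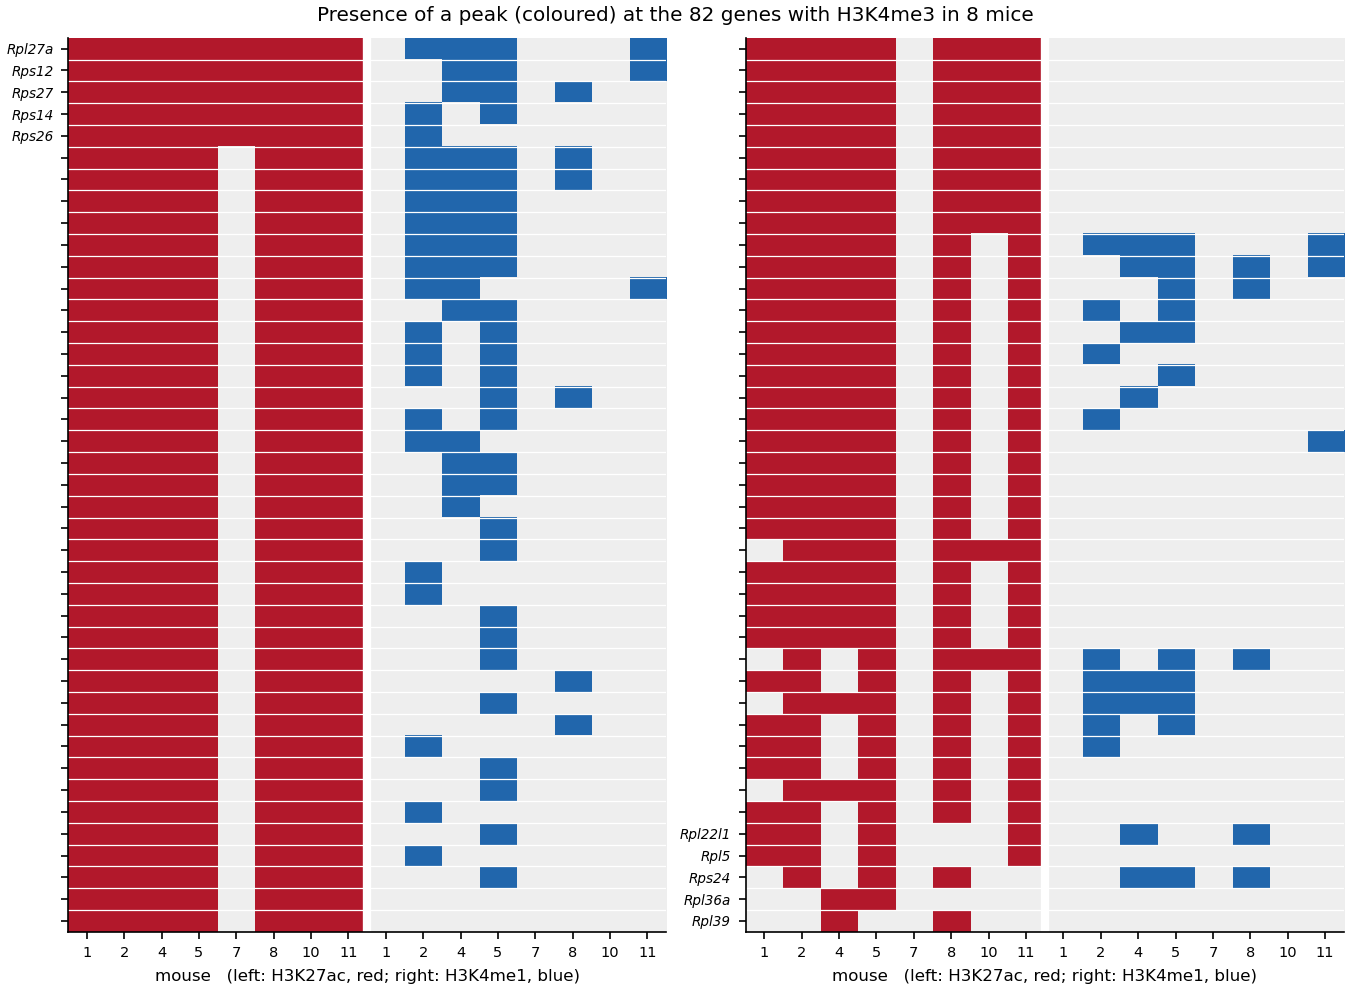
Peaks of H3K27ac (red) and H3K4me1 (blue) at the 82 genes with H3K4me3 (1 row a gene) in each of the 8 mice (columns), where a filled cell marks a peak within 1000 bp of a start and names are given for genes with H3K27ac in 8 mice or in at most 4. The columns of mouse 7 are nearly empty, with 5 H3K27ac and 0 H3K4me1 peaks, and mice 1 and 10 also hold 0 H3K4me1 peaks.

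In rank, H3K27ac at these genes was close to that of other marked genes. The median height percentile was 71.4, 76.3, 47.3, 76.4, 19.9, 68.2, 68.2 and 80.9 in mice 1, 2, 4, 5, 7, 8, 10 and 11, where the value of mouse 7 rests on 5 genes. All marked genes with a peak had 42.7 to 78.3, the ribosomal protein genes being higher in 5 of 8 mice with a median difference of 0.730 points. Against complex I genes they were lower in 8 of 8 mice, by a median of 22.0 points (median difference -22.0). The contrast between the 2 marks is that H3K4me3 height stood above that of all marked genes in every mouse and H3K27ac height did not. Gene by gene, the median height percentiles of the marks had a Spearman correlation of 0.0578 over the 82 genes, and H3K4me3 width and the number of mice with H3K27ac 0.294, both as descriptions across genes measured in the same mice. The small subunit stood above the large in H3K27ac height in 8 of 8 mice, at 74.8 against 69.6, the reverse of the order in H3K4me3, although the comparison in mouse 7 rests on 1 gene of the large (Rpl27a) and 4 of the small subunit.

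H3K4me1 was found off the start itself, as at nearly all marked genes. Of the 82 genes, 56 (68.3%) had a peak within 1000 bp in at least 1 mouse, against 40.7% of all marked genes and 50.0% of both mitochondrial ribosomal protein and complex I genes. The genes with one numbered 29, 23, 39, 11 and 6 in mice 2, 4, 5, 8 and 11, and 0 in mice 1, 7 and 10, whose lists held few peaks. The most, 4 mice, were reached at Rpl14, Rpl18, Rpl27a, Rpl30 and Rps15a, named here because they are few. Of 108 peaks counted by gene and mouse, 91 (84.3%, against 68.0%) lay downstream of the start and 17 (15.7%, against 31.0%) upstream. Those across it numbered 0 (0%, against 1.05%), a share about as low as that of all marked genes. The median distance was 893 bp against 803 bp. Some distances exceeded the 1000 bp of the assignment, as at Rps10 (1976 to 2268 bp). Within 500 bp the share fell to 12 genes (14.6%), close to the 14.1% of all marked genes, so the excess lay between 500 and 1000 bp from a start, within the median downstream reach of H3K4me3 of 1206.5 bp. A stretch shared with an H3K4me3 peak of the same mouse was present in 77 of the 108 (71.3%, against 64.4%). None of the 4 X-linked genes had H3K4me1, against 56 of the other 78 (71.8%).

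Neighbours of the pathway were looked at in the same way. Fau, whose product joins a ribosomal protein to a ubiquitin-like part, and Rack1, a scaffold on the small subunit, had H3K4me3 in all 8 mice with median height percentiles of 91.7 and 100. All 13 genes of translation factors and all 15 genes of ribosome assembly and RNA polymerase I also had it in all 8. H3K27ac in at least 7 mice was found at both, at 7 of 13 factors (53.8%) and at 4 of 15 assembly genes (26.7%), beside 61.0% of the ribosomal protein genes. Eef1b2, which recharges the elongation factor that brings transfer RNAs, had H3K27ac in all 8 mice, and Polr1b, the second largest subunit of RNA polymerase I, in 0.

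Cold and high-fat diet were then compared over mice. No ribosomal protein gene had any of the 4 marks in all 4 mice of a temperature and in none of the 4 of the other, and none did so by diet. Over all 21951 protein-coding genes such a pattern was found in H3K4me3 at 0.0273% by temperature and 0.155% by diet, in H3K27ac at 0.0592% and 0.0501%, in H3K4me1 at 0% and 0.0137%, and in H3K27me3 at 0% and 0.0364%. At backgrounds this low a count of 0 among 92 genes is near what all genes gave.

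Width and height were tested with limma on ranks turned into normal scores among the 9499 genes with H3K4me3 in all 8 mice, with temperature and diet as terms and Benjamini-Hochberg adjustment over all genes, where a difference of 1 is 1 SD of that scale. For width by temperature limma called 0 genes (0%) at an adjusted p under 0.05, with 627 at an unadjusted p under 0.05, 0 of them ribosomal protein genes. For width by diet it called 5 genes (0.0526%), again none of the 82, with 1556 at an unadjusted p under 0.05, of which 11 were ribosomal protein genes with a lowest adjusted p of 0.226. For height limma called 0 genes (0%) by temperature and 0 (0%) by diet, with 494 and 558 at an unadjusted p under 0.05. Of the 82 genes 7 were among the first and 11 among the second, with lowest adjusted p of 0.884 and 0.691. No shift of a single ribosomal protein gene with cold or diet thus passed the threshold after adjustment, which does not show that the values were equal.

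The direction of these shifts is given as a description, with no test over the group. Under HFD the width score was higher at 57 of 82 genes, with a median difference of 0.24 against 0.05 over all 9499 genes, and the height score was higher at only 21, with a median of -0.36 against 0.01. Without mouse 7, which is one of the 4 HFD mice, the medians were 0.23 for width and -0.19 for height, and without mouse 4 the median for height was -0.61. The size of both displacements depended on the scale, and for width so did the sign. Beside all genes, the width of the 82 stayed higher and their height lower on each scale given here. In own-list percentiles the median difference in width was 2.68 points where all genes had -3.18. On log2 widths without ranking only 33 of 82 genes were higher under HFD, with a median of -0.05 where all 9499 genes had -0.25. In own-list percentiles the median difference in height was -9.66 points where all genes had -7.98, and in log2 height -1.72 where all genes had -1.52. Rpl22l1 illustrates the width: its peaks were 1538, 1467, 748 and 881 bp in NCD mice 1, 2, 4 and 5 and 625, 1627, 1361 and 1908 bp in HFD mice 7, 8, 10 and 11. The groups overlapped, and limma gave a difference in score of 0.85 (SE 0.285, adjusted p = 0.230). For Rps27 and Rps4x the differences were 0.73 and 0.74 (adjusted p = 0.301 and 0.297 by limma), and for Rps19 the score fell by 0.59 (adjusted p = 0.303).

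For height, Rps27a had percentiles of 98.8, 98.8, 93.9 and 98.5 in the NCD mice and 92.1, 85.8, 77.2 and 62.2 in the HFD mice. These groups did not overlap, and the limma difference in score was -1.45 (SE 0.523, adjusted p = 0.718). In own-list percentiles the median difference of all genes was itself -7.98 points, and the share of genes without overlap was not counted. Rpl11 had 99.5, 99.4, 80.8 and 99.9 against 43.4, 81.9, 72.4 and 99.4, which overlapped, with a difference of -1.33 (SE 0.616, adjusted p = 0.836 by limma). All 11 genes with an unadjusted p under 0.05 for height by diet had the lower value under HFD. Over all genes 5.87% passed that threshold in either direction, and their split by direction was not counted. With own-list percentiles 3 passed, all lower, and with -log10 p in place of fold 15 passed, 7 higher and 8 lower, and with mouse 4, 7, 8 or 11 left out 1 to 3 of the genes that passed were higher, so the single direction depends on the measure and on the mice. By temperature, Rps27a differed in score by -0.93 (SE 0.523, adjusted p = 0.917) and Rplp0 by 0.32 (SE 0.510, adjusted p = 0.961) in height.

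**Figure D5:**
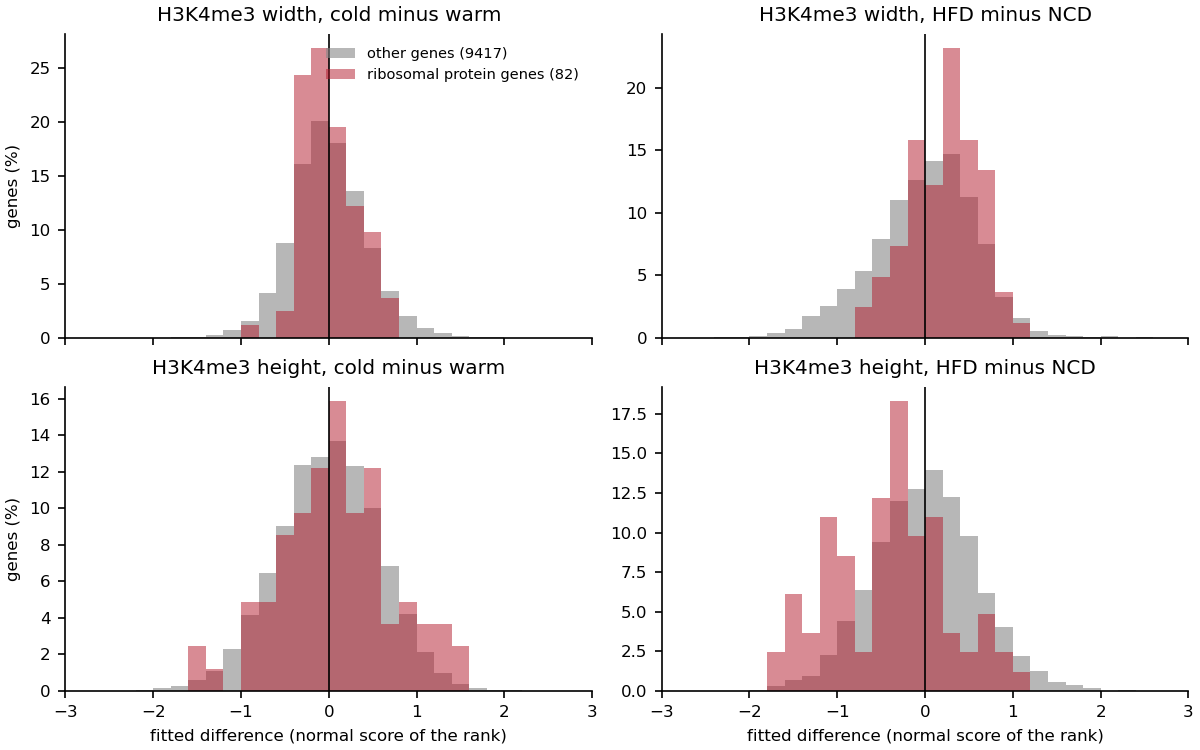
Distribution of limma differences in H3K4me3 width and height score (x axis, in SD of the rank scale) by temperature (cold minus warm) and diet (HFD minus NCD), as the percentage of genes (y axis) for the 82 ribosomal protein genes and the 9417 other genes. The ribosomal protein genes lie around 0 by temperature and have medians by diet of 0.24 in width and -0.36 in height on this scale. None passes an adjusted p of 0.05 by limma. On log2 widths their median is -0.05, where all 9499 genes have -0.25.

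For H3K27ac only 821 genes had a peak in every mouse, among them 5 ribosomal protein genes. There limma called 2 genes for width by temperature (0.244%) and 0 genes (0%) for width by diet, for height by temperature and for height by diet, where 52, 28 and 57 genes had an unadjusted p under 0.05. None of the calls and 0 of those at an unadjusted p under 0.05 were ribosomal protein genes. Without mouse 7, with 3735 genes and 50 ribosomal protein genes, limma called 0 genes (0%) in each of the 4 comparisons, while 242, 267, 189 and 186 genes had an unadjusted p under 0.05 for width by temperature, height by temperature, width by diet and height by diet. Of the 50, these were 4, 2, 1 and 3. Rps6 was the 1 for width by diet, its widths being 1733, 1516, 2005 and 1813 bp in NCD mice 1, 2, 4 and 5 and 567, 493 and 1831 bp in HFD mice 8, 10 and 11. Those groups overlapped through mouse 11, and the difference in score was -0.96 (SE 0.406, adjusted p = 0.901 by limma).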

How the data were processed

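ChIP-seq reads were trimmed with cutadapt and aligned with Bowtie2 to GRCm38, and the authors called peaks with MACS2 for each library against the input of the same mouse. No source used here gives the versions of these tools. The deposited peak lists give, for each peak, the fold enrichment over input at the summit (a ratio), -log10 p and -log10 q, the lowest deposited -log10 q being 1.30, and no read counts. All 32 lists were used. A few of the genes are not reported here by name.

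Peaks were assigned to genes within 1000 bp of any start site of GENCODE M21 basic, with Python 3.11.15, pandas 2.3.3 and scipy 1.17.1. Differences were fitted with limma 3.58.1 in R 4.3.3 on normal scores of ranks among genes with a peak in all 8 mice, with temperature and diet as terms, and p-values were adjusted by Benjamini-Hochberg over all genes tested. The procedure was checked on simulated data.

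The members and lists were chosen with earlier results of these data known. Named were the stalk proteins, Rpsa, the paralogs with their counterparts, genes of known roles fixed as a list, genes with incomplete or rare marks, and the 5 highest and lowest by width percentile. The study's methods name interscapular brown fat (iBAT) as the tissue of the ChIP-seq. The series' design text names an inguinal depot instead, and the labels alone do not settle it. Alternatives were the window, the threshold on -log10 q, another scale, the interaction, peaks in at least 6 mice and leaving out each mouse. Heights rank enrichment within a list and are not amounts of a mark.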

Additional observations from a re-analysis of the deposited data

Results flagged for a closer look

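A single library accounted for most of what stood apart. In mouse 7 (warm, HFD), whose H3K4me3 and H3K27ac lists were the shortest of the 8 with 13517 and 3224 peaks, the median H3K4me3 width of the 82 ribosomal protein genes was 978 bp, far from the 1805.5 to 1966 bp of the other 3 warm mice. Its median H3K4me3 height percentile of 65.2 lay far from the 85.5 to 96.6 of the other 7 mice. H3K27ac was present there at 5 of the 82 genes, against 52 to 81 in the other 7 mice and 75 to 80 in the other 3 warm mice. The median H3K27ac width percentile of 25.1 compared with 54.4 to 77.8 in the other 7 mice, and the height percentile of 19.9 with 68.2 to 76.3 in the other 3 warm mice. Both H3K27ac percentiles of mouse 7 rest on those 5 genes. All 6 values were set apart by Dixon's criterion at 95%, out of 45 groups of values examined. These groups overlap, and those of H3K4me3 presence hold 82 in every mouse, so a rate of 1 in 20 by chance cannot be set beside the count. Gene by gene, the same criterion set a mouse apart for H3K4me3 height at 29 of 82 genes, mouse 7 in 24 of them, and for width at 13, mouse 7 in 12. Depth is unknown for these lists, and its part in the values of mouse 7 was not tested. In mouse 7, 30 of the 82 genes had 2 or more H3K4me3 peaks in the window, against 2 to 8 in the other mice. Each width there is that of 1 peak.

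Cold minus warm in the median H3K4me3 width percentile of the 82 genes was -1.13 on NCD and 5.57 on HFD, every cold mouse being on one side of both warm mice of its diet and on opposite sides in the 2 diets. The difference between the diets in this median was not tested. All 9499 genes with H3K4me3 in every mouse gave -1.19 and 7.30 in the same comparison, and the warm HFD pair holds mouse 7. Gene by gene, a limma fit with an interaction called 0 genes for H3K4me3 width. The lowest adjusted p by limma was 0.0727 over all genes and 0.904 among the 82. For height it also called 0. The height interaction was above 0 at 65 of the 82 genes, with a median of 0.57 against -0.05 over all genes. Of the 82, 10 had an unadjusted p under 0.05, all above 0. Over all genes 4.38% had one in either direction, and their split by direction was not counted.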

How the results depend on the processing

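Of 424 values recomputed under alternative settings, 391 stayed within the limits set for no change. Many of these had little room to move. With the main values included, 116 were counts of ribosomal protein genes called by limma, all 0. Another 104 were counts of presence following temperature or diet, of which 3 were above 0. The share that stayed is therefore no measure of robustness. Genes with H3K4me3 in every mouse stayed at 82, except for 81 by summit and 77 at -log10 q of at least 5, and limma called 0 ribosomal protein genes under every setting run. When only peaks with -log10 q at or above 5 counted, genes with H3K27ac in at least 7 mice fell from 50 to 27, genes with H3K4me1 from 56 to 16, and the H3K4me3 width percentile from 80.3 to 77.6. With peaks of any -log10 q but a window of 500 bp, 12 genes had H3K4me1. Presence followed diet at 1 gene for H3K27ac with a window of 2000 bp (Rpl9-ps1). Leaving out 1 mouse gave 0 to 1 genes for H3K4me1 by temperature (Rps12, without mouse 10) and 0 to 6 by diet (without mouse 1, whose list held few peaks). Calls over all genes moved more. H3K4me3 width by temperature gave 1 gene with peaks in at least 6 mice and 0 to 1 leaving out 1 mouse. Width by diet, 5 genes, gave 3 with own-list percentiles, 0 with log2 values, 1 at the stricter threshold and 0 to 23 leaving out 1 mouse (23 without mouse 7, 18 without 11, 8 without 1, 0 without 4 or 10). Height by diet gave 6 with -log10 p in place of fold. H3K27ac width by temperature, 2 genes, gave 4 with the interaction, 0 with percentiles, log2 values, the stricter threshold or peaks in at least 6 mice, and 0 to 9 leaving out 1 mouse (9 without mouse 5). The pyrimidine start, chosen after seeing the data for 2 and 10 bases, was in 30.1% of the ribosomal protein promoters and 8.96% of all within 2 bases, and in 52.1% and 30.7% within 10. The causes were not tested. No paired analysis was possible because the conditions hold different mice and the numbers 1 to 11 name each mouse only once per mark. Peak lists without read totals leave depth unknown, and 2 mice per condition limit every comparison.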

Other observations

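Pseudogenes of ribosomal proteins were almost without H3K4me3: 284 of 290 had no peak in any mouse. The 6 with one were Rps4l (chromosome 6) and Rpl29-ps2 (chromosome 13) in 8 mice, Rpl30-ps6 in 6, Rpl36-ps8 in 2, and Rpl5-ps2 and Rps19-ps10 in 1. Rps4l, a copy of the X-linked Rps4x, had H3K27ac in 3 mice, Rpl29-ps2 in 6 and Rpl30-ps6 in 7. Near Rpl29-ps2 lies the start of Akr1e1 and near Rps19-ps10 that of Gopc, within 3000 bp, while no coding start lay that close to Rps4l or Rpl30-ps6.

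The low recurrence of H3K27ac at Rpl36a and Rpl39 and the lack of H3K4me1 at the 4 X-linked ribosomal protein genes were set beside the other genes of the X chromosome after these values were seen. Of 265 X-linked genes with H3K4me3 in every mouse, 21.1% had H3K27ac in at least 7 mice, against 37.6% of 9230 autosomal genes, and 1.51% had H3K4me1 in at least 1 mouse, against 41.8%.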
